A study of Rattus norvegicus with 18 samples.

Results

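The 10 genes described here serve melanin synthesis and the melanosome: Tyr, Tyrp1, Dct, Pmel, Mlana, Slc45a2, Slc24a5, Oca2, Gpr143 and Mitf. They were chosen by name from what is known of pigment cells, with earlier results of these data also known. All 10 were found among the 32285 genes of the retina table and the 32552 genes of the RPE/choroid table. Bulk RNA-seq of wild-type Fischer 344 rats gave 18 libraries, 9 of neural retina and 9 of RPE/choroid, the retinal pigment epithelium together with the vascular and pigmented layer behind it. In each tissue 3 libraries came from young rats of 4 months, 3 from untreated aged rats of 24 months and 3 from aged rats given 8-aminoguanine (8-AG), an inhibitor of purine nucleoside phosphorylase, from 22 months of age for 8 weeks, at 5 mg/kg/day by mouth in their water. The rats were female, and the strain is albino in every group. The RPE/choroid was taken by washing the opened eyecup with lysis reagent after the neural retina had been lifted off. In the RPE/choroid labels, young libraries 1 and 2 share an animal-like number with the letters L and R, as do aged libraries 1 and 2; whether each pair is both eyes of 1 rat is not stated, so the P values may rest partly on technical spread, and the members' counts of calls and medians in the 3 RPE/choroid comparisons are also given with each such pair summed into 1 sample. The labels give polyA RNA for the young and aged retina libraries and total RNA for the 8-AG ones, so in retina that difference in label and the treatment cannot be told apart.

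Melanin is built inside melanosomes, lysosome-related organelles that mature from an unpigmented vesicle with protein fibrils to a dense, dark granule. In the eye they are made by the RPE, which pigments itself chiefly before birth, and by melanocytes of the choroid, iris and ciliary body, which derive from the neural crest. Laboratory albino rats carry a defect in Tyr, the gene for tyrosinase, so their melanosomes stay without melanin although the cells that hold them remain.

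The enzymes come first in the list. Tyr (ENSRNOG00000016421) encodes the enzyme that starts the pathway by oxidising tyrosine, Dct (ENSRNOG00000008671) encodes dopachrome tautomerase, and Tyrp1 (ENSRNOG00000029318) encodes a related protein of the melanosome membrane. Pmel (ENSRNOG00000023085) encodes the fibril protein on which melanin is laid down, Mlana (ENSRNOG00000036608) a small melanosomal protein that binds it, and Gpr143 (ENSRNOG00000003543) a receptor of the organelle's membrane whose loss causes ocular albinism. Slc45a2 (ENSRNOG00000018759), Slc24a5 (ENSRNOG00000005158) and Oca2 (ENSRNOG00000014465) encode transporters that set the ions and the pH needed by tyrosinase. Mitf (ENSRNOG00000008658) encodes the transcription factor that drives many of the others.

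Sequence near the start sites of the members is shown because Mitf is known to bind the letters TCATGTG and its reverse complement CACATGA, and because the longer form TCATGTGCT, part of the M-box of pigment genes, recurred among them. RefSeq promoter windows on the GRCr8 assembly, from 250 bases before to 50 bases after the start, were at hand for 8 of the 10 members. TCATGTGCT on either strand was present in 4 of these 8 windows (Tyr, Tyrp1, Dct and Gpr143) and in 0.197% of the 27457 promoter windows in the table. The shorter TCATGTG, which lies within it, was present in 5 of the 8, with Mlana as the addition, and in 3.46% of all windows. CACGTG, the other E-box that this protein family binds, was in none of the 8 and in 6.65% of all windows. A match is a description of these letters, not a bound site. In the 60-base stretches below, written 5′ to 3′ on the strand of the gene, capitals mark TCATGTGCT in Tyr, Tyrp1 and Dct, its reverse complement in Gpr143, and CACATGA in Mlana.
Tyr (chr1:150622944-150623003, reverse strand): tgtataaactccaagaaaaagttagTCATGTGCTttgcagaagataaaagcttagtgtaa
Tyrp1 (chr5:100327032-100327091, forward strand): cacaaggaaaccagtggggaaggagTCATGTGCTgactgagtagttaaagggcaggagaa
Dct (chr15:101508133-101508192, reverse strand): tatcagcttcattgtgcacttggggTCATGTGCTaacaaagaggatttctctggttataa
Gpr143 (chrX:25498541-25498600, forward strand): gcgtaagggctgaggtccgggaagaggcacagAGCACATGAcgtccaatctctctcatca
Mlana (chr1:236882846-236882905, forward strand): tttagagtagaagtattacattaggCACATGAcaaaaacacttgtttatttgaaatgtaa

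The first capital lies 121 bases before the start of Tyr, 68 before that of Tyrp1, 138 before that of Dct, 28 before that of Gpr143 and 204 before that of Mlana. The windows of Pmel, Oca2 and Mitf held neither TCATGTG nor its reverse complement. Slc45a2 and Slc24a5 were not in the table.

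The files give counts per gene, 12283458 to 15644346 per retina library and 28573828 to 48203050 per RPE/choroid library. A level is a count scaled to a library of 1000000 (CPM) with TMM factors, which correct for libraries whose composition differs. It is not divided by transcript length, so it compares libraries and not genes. In RPE/choroid, 8-AG library 1 stood apart, with 57038 CPM summed over 14 rod photoreceptor markers against 646 to 20577 in the other 8 libraries, and 48285 CPM over 6 skeletal muscle markers against 19.5 to 4473. The comparisons that hold it are therefore also given without it.

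In RPE/choroid the members' summed level lay between 24452 and 31851 CPM in 7 of the 9 libraries. Counts of Dct, Pmel and Tyrp1 made up 87.3% to 93.1% of this sum, so it describes these 3 genes above all. It was 24452, 25825 and 29925 CPM in young libraries 1 to 3, 28093, 31851 and 11975 CPM in aged libraries 1 to 3 and 1536, 28327 and 31765 CPM in 8-AG libraries 1 to 3. Aged library 3 and, far more so, 8-AG library 1 were low, and the other 7 libraries of the 3 groups overlapped. In bulk tissue, fewer pigment cells and less RNA per pigment cell cannot be told apart.

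Tyr read 324, 336 and 452 CPM in the young, 418, 529.5 and 199.5 in the aged and 14.6, 505 and 756 in the 8-AG treated libraries. For Tyrp1 the values were 4593, 4104 and 4015 CPM, 5320.1, 5398 and 1780.2 CPM and 337, 4569 and 6409 CPM in the same order. Dct gave 11571, 12262 and 14216 CPM in young, 12894, 14867 and 5383 CPM in aged and 686, 13201 and 13267 CPM in 8-AG treated RPE/choroids. The aged groups of all 3 enzymes spanned the young values from below to above, because aged library 3 was the lowest and aged library 2 the highest of the 6. Tyr and Tyrp1 were at their highest in 8-AG library 3 and at their lowest in 8-AG library 1, which are members of 1 group.

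The fibril gene Pmel ran to 6591, 7601 and 9427 CPM in young, 7778, 9165 and 3696 CPM in aged and 318, 8264 and 9488 CPM in treated libraries. Its partner Mlana showed 326, 363 and 458 CPM, 394, 492 and 236 CPM and 27.1, 443 and 451 CPM. In both, 8-AG library 1 was the lowest of the 9 and aged library 3 the next lowest, as for the enzymes. The receptor gene Gpr143 was the exception among the aged libraries, at 78, 74.5 and 82 CPM in young, 74.7, 49.3 and 51.5 CPM in aged and 8.84, 86.1 and 76.5 CPM in treated RPE/choroids. Aged library 2, which had the highest aged level of Tyr, Dct and Pmel, had the lowest aged level of Gpr143, and aged library 1 alone of the aged group reached the young range.

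Of the transporters, Slc45a2 was at 375, 408 and 484 CPM in young, 428, 493 and 200.2 CPM in aged and 51.9, 426 and 398 CPM in 8-AG treated libraries. Slc24a5 was at 157, 172 and 174 CPM, 179, 190.1 and 115 CPM and 42.3, 192 and 294 CPM, and Oca2 at 238, 279 and 339.8 CPM, 311, 381 and 132 CPM and 10.4, 348 and 322 CPM. Slc24a5 varied least of the 3 between the low and the other libraries and Oca2 most. The regulator Mitf had 199.6, 224 and 279 CPM in young, 296, 286 and 182 CPM in aged and 40.1, 293 and 304 CPM in treated libraries, with aged libraries 1 and 2 above the young values and aged library 3 below them.

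**Figure D1:**
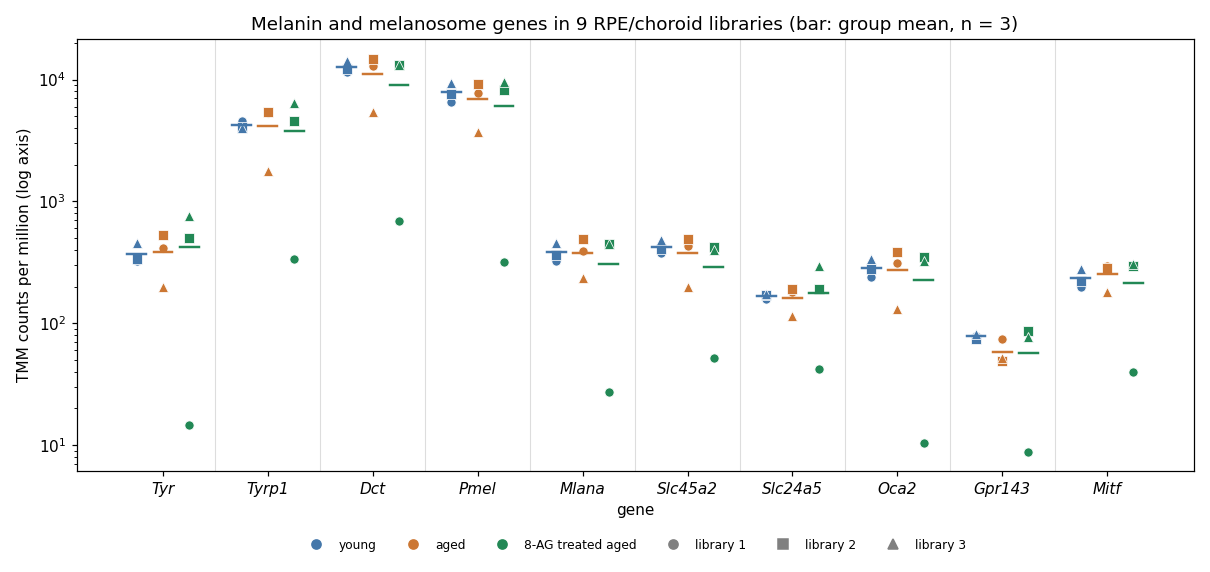
TMM-scaled CPM (log axis) of each member in the 9 RPE/choroid libraries, with young in blue, aged in orange and 8-AG treated aged in green, marker shapes for libraries 1 to 3 and short bars for group means (n = 3). In each gene the lowest point is 8-AG library 1, and aged library 3 lies below the other aged libraries except in Gpr143.

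Relative to the median of the other 8 RPE/choroid libraries, 8-AG library 1 was lower by 4.17-fold for Slc24a5, 7.04-fold for Mitf, 29.8-fold for Tyr and 30.5-fold for Oca2, the 2 smallest and the 2 largest of the 10 differences. Aged library 3 held 33.2% (Tyrp1) to 83% (Gpr143) of the mean of aged libraries 1 and 2. The size of the drop thus differed between members within each of the 2 libraries.

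Other cell types' markers differed in these libraries too. The melanocyte markers outside the RPE (Sox10, Kit, Ednrb, Pax3 and Erbb3 of the 6 listed) summed to 1075, 1024 and 1355 CPM in young, 1240.2, 1358 and 541 CPM in aged and 113, 1361 and 922 CPM in treated libraries, low in the same 2. The 6 fibroblast markers summed to 7259, 8576 and 11077 CPM, 7867, 10912 and 4241 CPM and 1078, 9481 and 8005 CPM, again low in both. Endothelial markers (9 found of 10 listed) were 683 CPM in 8-AG library 1 and 3745 to 7847 CPM elsewhere, and the 6 immune markers 720.4 CPM against 5131 to 9594 CPM. Surface epithelium markers, 7 genes such as the keratin gene Krt12 of the cornea, reached 1085 CPM in 8-AG library 1, 217 CPM in 8-AG library 3 and at most 32.3 CPM in the other 7. In 8-AG library 3, where Tyr and Tyrp1 peaked, the ciliary body and iris markers were also at their highest, with 921 CPM against 253 to 548 CPM in the other 8. The part of these markers' tissues in the members' levels was not tested.

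The RPE markers, 16 genes with no member among them, ran the other way. They summed to 4939, 4198 and 2328 CPM in young, 2760.1, 2322 and 5285 CPM in aged and 6606, 3560.0 and 4531 CPM in treated libraries. The library with the lowest members' sum thus had the highest sum of RPE markers. Not all of these genes are of the RPE alone, as Efemp1 averaged 112 CPM in young retinae and 105 CPM in young RPE/choroids. Rpe65, the isomerase of the visual cycle, was at 322, 243.9 and 57.3 CPM, 121, 26.8 and 332 CPM and 601, 167 and 108 CPM, and the rod sum was 18589, 20577 and 2092 CPM, 12095, 646 and 17332 CPM and 57038, 936 and 913 CPM in the same libraries. Rpe65 was highest in the 4 libraries with the highest rod sums, young libraries 1 and 2, aged library 3 and 8-AG library 1. RPE markers did not all do this: Best1, an anion channel of the basal membrane, and Kcnj13, a potassium channel, were at 427 and 176 CPM in 8-AG library 1, below their ranges of 564 to 996 and 307 to 629.7 CPM in the other 8.

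**Figure D2:**
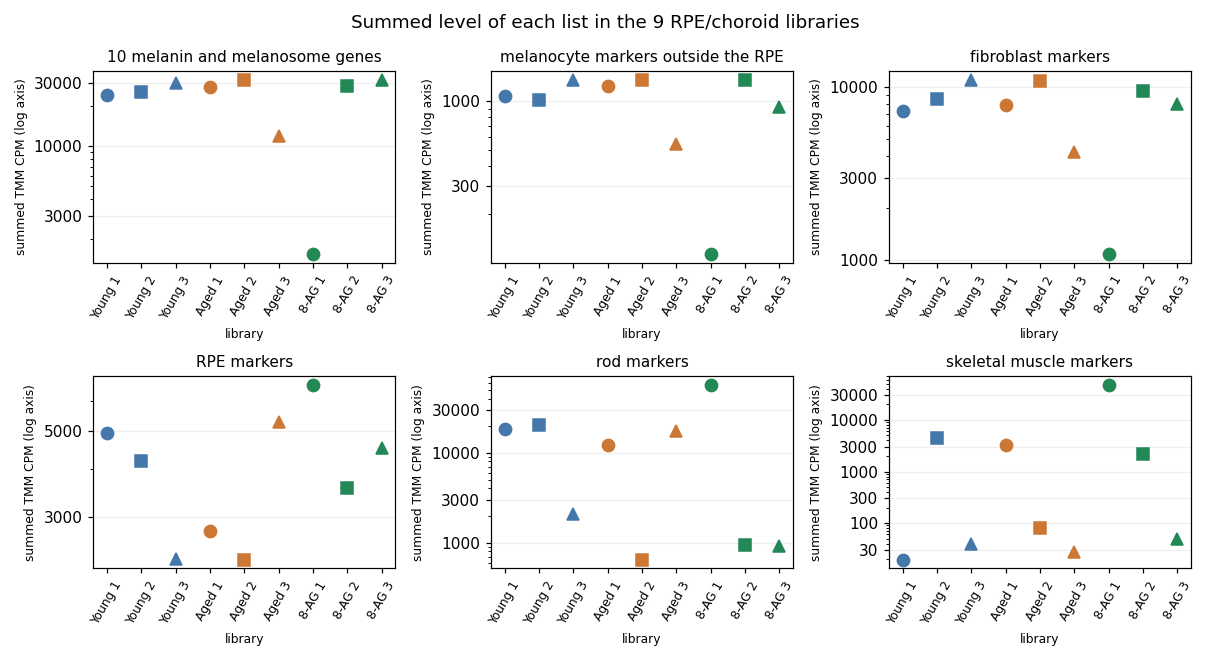
Summed TMM-scaled CPM (log axes, scaled to each panel) of the members and of 5 marker lists in each RPE/choroid library. The members, the melanocyte markers and the fibroblast markers are lowest in 8-AG library 1, where the RPE, rod and skeletal muscle markers are highest.

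The members' sum divided by that of the RPE markers shows this spread in 1 value. It was 4.95, 6.15 and 12.9 in young, 10.2, 13.7 and 2.27 in aged and 0.233, 7.96 and 7.01 in treated libraries. The 3 groups overlapped. The mean log2 ratio differed by -0.10 between aged and young (two-sided exact permutation test, p = 1.0), by -1.54 between 8-AG treated and aged (exact p = 0.5) and by -1.64 between 8-AG treated and young (exact p = 0.6), where 3 libraries against 3 cannot give less than 0.1. Without 8-AG library 1 the last 2 differences turned to 0.13 and 0.03, and the difference between aged and young turned to 0.69 without aged library 3 and to 0.30 without young library 3. Divided by the melanocyte markers instead, of which Ednrb alone made up 49.6% to 76.8%, the members' sum was steadier, at 22.8, 25.2 and 22.1 in young, 22.7, 23.5 and 22.1 in aged and 13.6, 20.8 and 34.4 in treated libraries. The 6 untreated libraries, aged library 3 included, lay close together on this ratio, and the treated libraries lay on both sides of them. Kit and Ednrb are also genes of other cells, and Sox10 is also a Schwann cell marker. The members were not divided by the fibroblast markers, which were low in aged library 3 and 8-AG library 1 too. Whether the steadiness is particular to the melanocyte markers was not tested.

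Whether aging changes the members in RPE/choroid was read from edgeR's quasi-likelihood F-test across 16047 genes, where a gene was called if it changed by more than 1.5-fold with P below 0.05 before adjustment. All 10 members passed the filter on low counts and 0 were called, against 1.35% of all genes tested, and the DESeq2 Wald test also called 0, against 1.6%. The log2 fold changes ran from -0.42 (Gpr143) to 0.12 (Mitf) with a median of -0.05, where the median over all genes was 0.02. Gpr143 was 58.5 ± 14.1 CPM in aged and 78.2 ± 3.76 CPM in young libraries (SD, n = 3), a log2 fold change of -0.42 (SE 0.19, edgeR adjusted p = 1.0), the farthest from 0 of the 10. Without aged library 1, the one aged library in the young range, its log2 fold change was -0.64 and Gpr143 was called, where 1.99% of all genes were called in that fit. With both L and R pairs summed, which leaves 2 samples a group, 0 were called beside 1.18% of all genes, and the members' median was -0.30.

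For 8-AG treated against aged RPE/choroids, the fit of 16257 genes called 0 of the 10 members, against 1.65% of all genes, and DESeq2 called 0, against 3.44%. The smallest P among them was 0.67. The median log2 fold change of the members was -0.23, beside 0.01 for all genes, and 8 of the 10 lay below 0, where 51.6% of all genes lay above 0, from -0.35 for Slc45a2 (SE 0.79) to 0.15 for Tyr (SE 1.18). Without 8-AG library 1 the median turned to 0.32 and each of the 10 lay above 0, from 0.14 for Slc45a2 to 0.72 for Tyr, with 0 called, where 48.8% of all genes lay above 0 and 3.35% were called. When aged library 3 was left out as well, a choice made after the values were seen, the median was 0.03, with Tyr at 0.41, Slc24a5 at 0.39 and Gpr143 at 0.38, and 0 were called, beside 2.76% of all genes. With the aged pair summed the median was -0.03 and 0 were called, beside 0.504% of all genes. The median was above 0 without aged library 2 too, at 0.02, and with the mean log2 level of the RPE markers as a covariate, at 0.47, and it was -1.27 with that of the rod markers, or 0.02 with these but without 8-AG library 1, added after the values were seen. The direction of the 8-AG difference in this tissue thus depended on the libraries and covariates used.

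Set against the young, treated RPE/choroids gave 0 called members of 10 in a fit of 16215 genes, where 1.99% of all genes were called, and 0 by DESeq2, which called 3.98%. The members' median log2 fold change was -0.32, beside 0.02 for all genes, and ran from -0.53 (Slc45a2) to 0.20 (Tyr). Without 8-AG library 1 the median was 0.23, and Tyr, at 0.77 (edgeR adjusted p = 0.77), was the 1 member called, where 4.15% of all genes were called in that fit. Slc24a5 stood at 0.54 there and Dct at 0.07. With the mean log2 level of the rod markers as a covariate, 7 of the 10 were called lower in the treated group, with a median of -1.83 over the 10 and edgeR adjusted p from 0.18 to 0.19 for the 7, but 18.3% of all genes were called in that fit. With the RPE markers as the covariate 0 members were called, beside 0.863% of all genes, and the median was -0.07, and with the rod covariate but without 8-AG library 1, a choice made after the values were seen, 0 were called, beside 4.09% of all genes, and the median was -0.08. With the young pair summed 0 were called, beside 0.66% of all genes, and the median was -0.40. Across all genes, 0 had an adjusted p under 0.05 by edgeR in the 3 RPE/choroid comparisons, where 341, 274 and 341 had an unadjusted P under 0.05 and DESeq2 gave 34, 41 and 70.

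**Figure D3:**
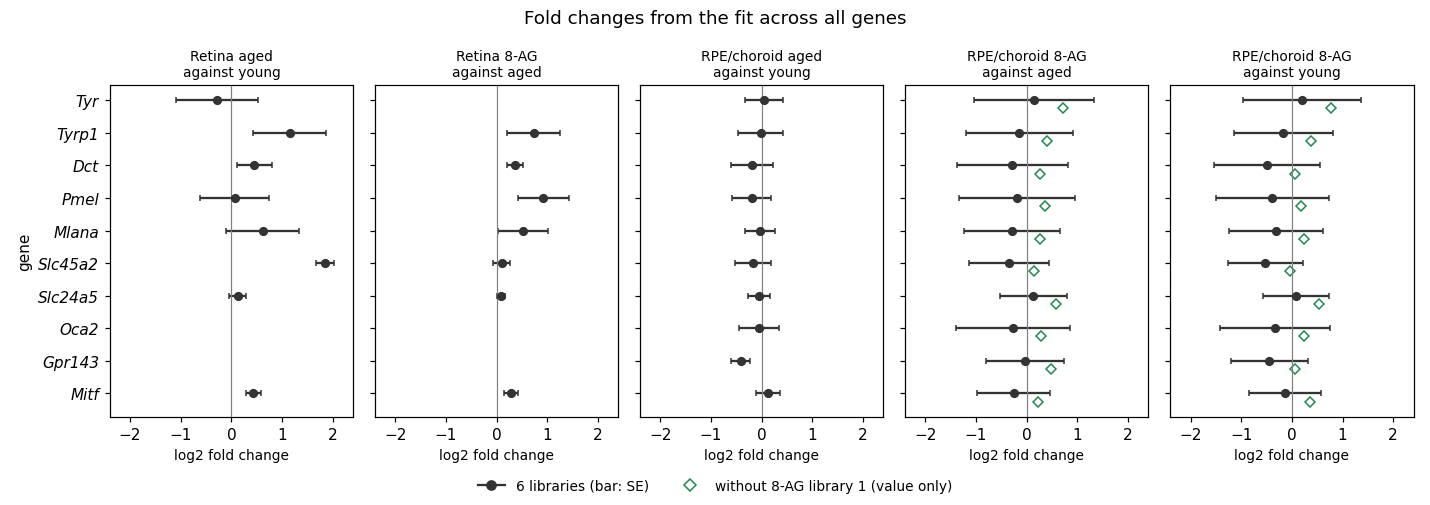
Log2 fold changes of the members in the 5 comparisons, from the fits across all genes (filled points, bars are SE), with the value without 8-AG library 1 as open diamonds in the 2 comparisons that hold it. Genes that did not pass the filter on low counts have no point, and Slc45a2 in aged against young retina stands farthest from 0.

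How closely the members moved together depended on the same library. Over the 9 RPE/choroid libraries Pearson's r between log2 levels of 2 members was 0.906 to 0.998 across the 45 pairs, which share library and depth. Without 8-AG library 1 it was 0.63 to 0.99 among 9 of the members and 0.32 to 0.48 for Gpr143 with the others (n = 8).

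The genes whose log2 levels were most like the members' mean over the 9 libraries were Bace2 (r = 0.996), Ung (0.996), Rai14 (0.994), Pth1r, Thbs2, Lmf2, Naglu, Islr, Col16a1 and Mlph (0.993). Mlph encodes melanophilin, which links melanosomes to their motor, and the collagen gene Col16a1 and Islr are stromal. For Tyr alone they were Rab38 (0.995), which encodes a GTPase that brings Tyr and Tyrp1 proteins to melanosomes, Lmf2, Ahnak2, Cd83, Hfe, Bace2, Ryr3, Tmem176b, Pttg1ip and Il10rb. Without 8-AG library 1, added after the values were seen, the 10 most like the mean were St6gal1 (0.987), Stat5a, Dag1, Acot2, Thbs2, Ell, Stim1, Sumf1, Foxp2 and Naglu, so 2 genes, Thbs2 and Naglu, stood in both lists. For Tyr alone the 10 without that library began with Acadvl (0.978), Zbp1 and Mapkapk3, and 0 of them were among the 10 found over 9 libraries. The r of Rpe65 with the members' mean was -0.66 over 9 libraries and -0.63 over 8. That of the melanocyte receptor gene Ednrb was 0.99 and 0.87.

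In the neural retina, which holds no pigment cells of its own, the members summed to 100.2, 116 and 86.3 CPM in young, 161, 132 and 134 CPM in aged and 238, 149 and 168 CPM in 8-AG treated libraries. Slc45a2, the melanosome transporter gene, was higher in aged than in young retinae. It was 3.31, 4.43 and 3.06 CPM in young, 11.1, 14.5 and 13.2 CPM in aged and 16.2, 14.6 and 11 CPM in 8-AG treated libraries. The aged and the treated values lay entirely above the young ones and overlapped each other. The group means were 13 ± 1.74 CPM in aged and 3.6 ± 0.727 CPM in young retinae (SD, n = 3), which is 3.61-fold higher in the fit (log2 fold change 1.85, SE 0.18, edgeR adjusted p = 2.2e-04 over 14588 genes). Leaving out any 1 library kept the call, with log2 fold changes of 1.74 to 2.03. Slc45a2 was the 1 member called of the 8 that passed the filter, where 8.84% of all genes were called and 6.45% were called higher.

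Mitf and Tyrp1 also had aged values above every young value, so the groups did not overlap for 3 of the 8 tested members, where 35% of all genes did not overlap. Mitf read 13.3, 9.83 and 11.5 CPM in young, 18.4, 13.5 and 14.7 CPM in aged and 20.4, 19 and 17.2 CPM in treated retinae. Its aged minus young log2 fold change was 0.43 (SE 0.15, edgeR adjusted p = 0.088), under the 1.5-fold that a call asks for. For Tyrp1 the values were 18.3, 19.1 and 3.13 CPM, 41.4, 23.2 and 25.1 CPM and 81.2, 25.5 and 42.1 CPM, a log2 fold change of 1.15 with age (SE 0.72, adjusted p = 0.38). Young library 3 was far below the other young libraries and Tyrp1 was not called.

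The other enzymes and Pmel were low in that same young library. Dct ran to 20.9, 28.8 and 11.6 CPM in young, 28.9, 27.8 and 26.9 CPM in aged and 46.7, 30.3 and 30.6 CPM in treated libraries. Pmel gave 8.4, 8.63 and 1.7 CPM, 9.55, 4.21 and 5.89 CPM and 19.3, 6.1 and 11.7 CPM. Mlana, at 1.0, 1.5 and 0.136 CPM in young, 2.33, 0.766 and 0.97 CPM in aged and 3.0, 1.14 and 1.6 CPM in treated libraries, rested on 2 to 39 counts per library. With age their log2 fold changes were 0.45 (SE 0.34), 0.07 (SE 0.68) and 0.62 (SE 0.72), each with overlapping groups. Without young library 2, Dct was called as well, at 0.79, where 8.91% of all genes were called in that fit. Without young library 3 its log2 fold change was 0.16 and that of Tyrp1 0.67, the lowest values on leaving out 1 library.

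Slc24a5 was at 32.7, 42.2 and 54.9 CPM in young, 47.1, 47.7 and 46.3 CPM in aged and 46.8, 51.4 and 52 CPM in treated retinae. It was highest of all in young library 3, where the enzymes were lowest, and its log2 fold change with age was 0.12 (SE 0.17). In the RefSeq annotation Tyrp1 overlaps the lncRNA gene LOC102556039 over 16017 bases, Oca2 overlaps 2 pseudogenes and Tyr 2 snRNA genes, Slc24a5 overlaps Myef2 over 649 bases and Pmel the ends of Cdk2 and Dgka, and without a stated strand of counting their shared reads cannot be told apart. Tyr was near the floor of detection, with 25, 10 and 2 counts in young, 17, 8 and 7 counts in aged and 45, 2 and 5 counts in treated libraries. Oca2, with 1 to 10 counts per library, and Gpr143, with 1 to 7, passed the filter in neither retina comparison. Tyr passed it in aged against young retina alone, with a log2 fold change of -0.28 (SE 0.81, edgeR adjusted p = 0.86), the 1 member below 0 of the 8 tested.

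**Figure D4:**
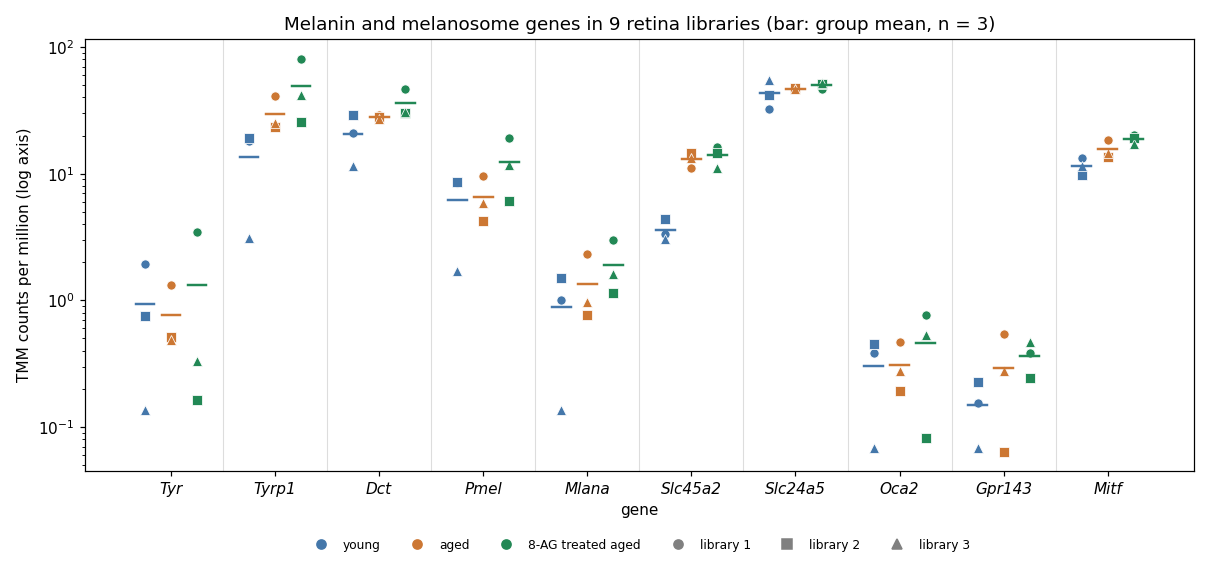
TMM-scaled CPM (log axis) of each member in the 9 retina libraries, with young in blue, aged in orange and 8-AG treated aged in green, marker shapes for libraries 1 to 3 and short bars for group means (n = 3). The 3 young points of Slc45a2 lie between 3.06 and 4.43 and the 6 aged points between 11 and 16.2 CPM, whereas Slc24a5 overlaps throughout.

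Under 8-AG, each of the 7 members tested in retina had a log2 fold change above 0 against the aged group, where 49% of all genes lay above 0, and 0 were called, where 0.957% of all genes were called. The DESeq2 Wald test called 0 too, beside 0.848% of all genes. The changes ran from 0.09 for Slc24a5 (SE 0.08) to 0.93 for Pmel (SE 0.49), with a median of 0.36. The 16 RPE markers, with no member among them, did likewise in this fit, with 15 above 0 and a median of 0.40. Tyrp1 stood at 0.73 (SE 0.52), Mlana at 0.52 (SE 0.50) and Mitf at 0.28 (SE 0.14). Dct, at 0.36 (SE 0.16, edgeR adjusted p = 1.0), was the 1 member whose treated values all lay above the aged ones, where the groups did not overlap in 8.64% of all genes. Slc45a2, which was higher in aged than in young retinae, had a log2 fold change of 0.10 (SE 0.16) under 8-AG. Treated library 1 had the highest level of Tyr, Tyrp1, Dct, Pmel, Mlana, Slc45a2 and Mitf among the treated libraries, and without it the members' median was 0.14. The median was 0.62 without treated library 2 and 0.56 without treated library 3.

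RPE genes were also present in the retina libraries and varied within groups. With age, 12 of the 16 RPE markers lay above 0 in retina. Their median log2 fold change was 0.40, beside 0.44 for the 8 members tested. Rpe65 was 6.55, 18.5 and 2.18 CPM in young, 41.1, 4.59 and 26.4 CPM in aged and 63.3, 32 and 24.4 CPM in treated libraries. Young library 3, with the lowest Tyrp1, Dct, Pmel and Mlana, also had the lowest Rpe65, and treated library 1 had the highest of both, together with 1893 CPM of 16 lens genes against 21 and 25.1 CPM in the other treated libraries. The lens sum was also high in young libraries 1 and 2, at 3113 and 6975 CPM, against 178 CPM in young library 3 and 19.2 to 24.9 CPM in the aged libraries. Aged library 2 had 14.5 CPM of Slc45a2 with 4.59 CPM of Rpe65, and young library 2 had 4.43 CPM of Slc45a2 with 18.5 CPM of Rpe65. The part of RPE transcripts in the Slc45a2 difference was not tested. The melanocyte markers, of which Kit and Ednrb are also genes of other cells, summed to 49.2, 45.6 and 54.1 CPM in young, 55.6, 71.3 and 55.3 CPM in aged and 55, 53.2 and 52.8 CPM in treated retinae. Among them Sox10 was at 0.539, 0.901 and 0.408 CPM in young, 1.55, 0.383 and 1.94 CPM in aged and 2.69, 0.976 and 1.34 CPM in treated libraries, with overlapping groups. Pax3 had no counts in any retina library, where 3 counts would be 0.192 to 0.244 CPM. Between young and aged retinae the rod sum went from 63051, 57869.6 and 63197 CPM to 36346, 37864 and 41252 CPM, the 6 immune markers went from 27.1, 26.9 and 27.1 to 91.7, 198 and 78 CPM, and the ciliary body and iris markers from 205, 199.6 and 149 to 166, 146 and 153 CPM. The surface epithelium markers summed to 3.93, 4.35 and 2.59 CPM in young, 5.9, 8.74 and 6.23 CPM in aged and 11, 24.4 and 27.7 CPM in treated retinae. The rod, lens, immune, melanocyte and surface epithelium sums did not overlap between the young and the aged libraries, like Slc45a2, and their part in its difference was not tested.

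**Figure D5:**
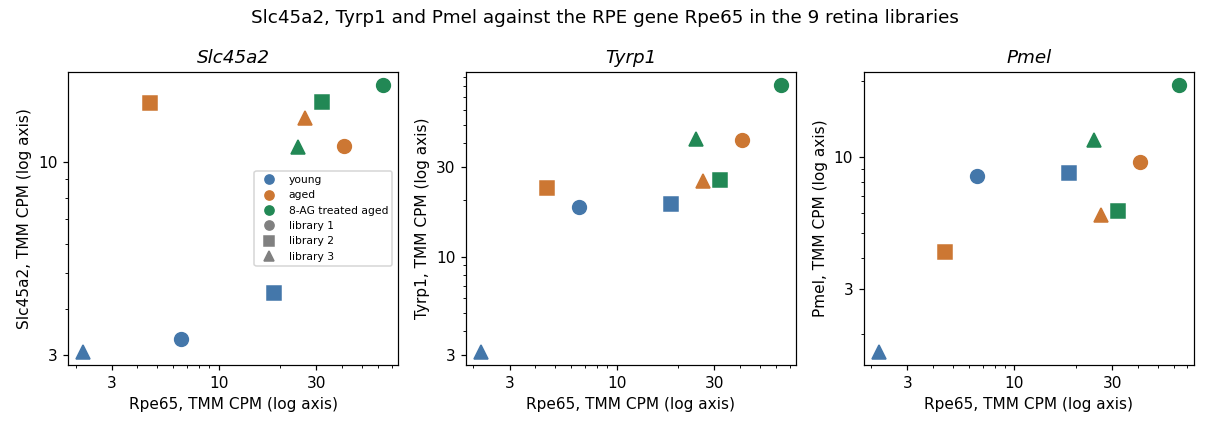
Slc45a2, Tyrp1 and Pmel (TMM-scaled CPM, log axes) against Rpe65 in the 9 retina libraries, coloured by group and with marker shapes for libraries 1 to 3. The 3 young points of Slc45a2 lie below the 6 others, and their Rpe65 values overlap those of the others. In Tyrp1 and Pmel the library with least Rpe65 is lowest and the one with most is highest.

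The aging change of Slc45a2 in RPE/choroid was -0.17 (SE 0.35), and the test of the difference between the tissues' changes gave -2.03 on the log2 scale (SE 0.43, edgeR adjusted p = 0.089 over 16792 genes). It missed the threshold after adjustment, as did the other 9 members, with 0.161% of all genes passing it. Leaving out single libraries moved the difference between -2.29 and -1.73. For the 8-AG change, 0 of the 10 members and 0 of 16915 genes passed, and the members' differences carried SEs of 0.72 to 1.79. Their median was -0.64, and -0.09 without 8-AG library 1 of RPE/choroid, where 0 passed as well.

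Other genes of the pathway were read as lists in the same fits. In the 3 RPE/choroid comparisons 0 genes were called of 22 for melanosome biogenesis, 8 for melanosome transport, 10 for the melanosome's ions and redox state, 12 pigment cell regulators and 10 of melanocyte signalling, where 1.35%, 1.65% and 1.99% of all genes were called. Their median log2 fold changes with age lay between -0.12 (transport) and -0.00 (ions and redox), and between treated and aged libraries from -0.33 (signalling) to 0.17 (regulators). Without 8-AG library 1 the latter lay between 0.05 (transport) and 0.25 (regulators) with 0 genes called, beside 3.35% of all genes, and against the young the 1 gene called was Slc24a4, lower in the treated libraries, beside 4.15% of all genes. Low in 8-AG library 1 like the members were Mlph, with 30.1 CPM against 392 to 1097 CPM in the other 8 libraries, Rab38, with 6.94 against 91.1 to 241 CPM, and Gpnmb, a melanosomal and macrophage glycoprotein gene, with 86.2 against 1398 to 3303 CPM. These 3 were named after their values were seen.

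In aged against young retina, 5 genes of the lists were called, each higher: Myo7a of 8 transport genes tested, Gpnmb and Rnaset2 of 10 for ions and redox, and Edn3 and S100b of 8 for signalling, with 0 of 21 for biogenesis and 0 of 10 regulators. These 5 are 8.93% of the 56 different genes tested, beside 8.84% of all genes. Myo7a was named after its value was seen. Gpnmb was 26.2 ± 11.4 CPM in aged and 3.94 ± 1.02 CPM in young retinae (SD, n = 3), a log2 fold change of 2.74 (SE 0.41, edgeR adjusted p = 0.013). Edn3, which encodes the endothelin that melanoblasts need, was 1.16 ± 0.128 CPM against 0.252 ± 0.198 CPM, where 3 counts would be 0.192 to 0.244 CPM. The young level of Edn3 thus lay near the floor of detection. S100b, also a gene of glia, rose by 0.82 on the log2 scale (SE 0.15, edgeR adjusted p = 0.011). Rab27a, the GTPase gene of melanosome transport, and Lyst, a gene of lysosome size, had adjusted p under the threshold with changes too small for a call, 0.57 and -0.24. Under 8-AG, 0 genes of the 5 lists were called in retina, beside 0.957% of all genes.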

How the data were processed

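For retina the authors deposited RSEM expected counts per gene, not normalized (11.5% not whole; rounded here), and for RPE/choroid raw counts. A TMM-normalized signal per gene that the authors deposited for retina was used for symbols and 1 alternative, and their tables of comparisons (fold changes, p-values) for names alone. The submitters' processing notes name Bowtie2 2.1.0, RSEM 1.2.15, edgeR and Rnor_6.0; the counting tool of RPE/choroid is not given in the sources used here. Of 14812 identifiers named by 2 sources, 13503 had the same name (91.2%), 1351 more were named by matching values, and Dct, listed under a clone name in the RPE/choroid table, was identified by matching its retina values.

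Pairs of groups (6 libraries a fit) went through edgeR 4.0.16, run in R 4.3.3 (filterByExpr, TMM, estimateDisp, glmQLFit with robust=TRUE, glmQLFTest, Benjamini-Hochberg over all genes tested); the tissues' changes were compared by an interaction term. A call is the study's rule, a fold change over 1.5 and P under 0.05. The SE is the log2 fold change divided by the square root of F. Correlations used log2(CPM + 1). Alternatives used DESeq2 1.42.0 and limma 3.58.1, and tables Python 3.11.15, SciPy 1.17.1 and matplotlib 3.10.9. On simulated data the rule called 93% of 2-fold changes with age in retina and 65% with age in RPE/choroid. Between treated and aged RPE/choroids it called 33.3%. The same simulations called 155, 601 and 683 unchanged genes, where the real fits called 1289, 217 and 269 genes in all. In RPE/choroid the simulated libraries thus drew more calls than the real ones, and these shares do not give the rule's power there.

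The members and lists were chosen with earlier results of these data known. Every member is named; other list genes are named where their adjusted p is under 0.05, and any others as stated; the genes most like the members are the 10 with the highest r. The main fits did not pair libraries by replicate number.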

Additional observations from a re-analysis of the deposited data

How the results depend on the processing

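The call of Slc45a2 in aged against young retina held under each alternative run, with log2 fold changes of 1.85 to 1.86 beside the leave-one-out range in the report. The count of called members there was 1 under each other setting, and 1 to 2 when single libraries were left out. In 8-AG treated against aged retina it ranged from 0 to 1 over the left-out libraries, the 1 being Pmel without treated library 2 (1.25, where 1.46% of all genes were called) or Mlana without aged library 1 (1.14, 1.27%), and the replicate block called 2, Pmel at 0.87 and Tyrp1 at 0.63, with 1.08% of all genes. The block is a hint at most: same-numbered libraries correlated at 0.11, 0.06 and 0.12 in that comparison, each best with its own number, and in the other comparisons not every pair was above 0.1. It changed no other count of calls.

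In RPE/choroid the count was 0 to 1 over left-out libraries with age, 0 to 0 for treated against aged and 0 to 1 for treated against young, and 7 with the rod covariate in the last, where 18.3% of all genes were called; the RPE covariate called 0, as did the rod covariate without treated library 1. Tyr there stood at 0.77 without treated library 1 and 0.46 with the RPE covariate, and turned to -0.66 with the replicate block, -2.14 with the rod covariate and -0.51 without treated library 3. Over left-out libraries the members' log2 ratio to the RPE markers ran from -0.61 to 0.69 with age, -2.42 to 0.13 for treated against aged and -2.52 to 0.030 for treated against young. Their median log2 fold change ran from -0.29 to 0.18, -0.63 to 0.32 and -0.70 to 0.23 in these comparisons. The cause of these shifts was not tested. The common dispersions were 0.20, 0.40 and 0.36 in the RPE/choroid comparisons, the last 2 with treated library 1, and 0.015 and 0.018 in retina. Depth limits Tyr, Mlana, Oca2 and Gpr143 in retina, which rest on few counts, and outside the members Edn3 in young retinae.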
